A study of Mus musculus with 4 samples.

Results

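The transcription factor gene Trp53, which encodes p53, and 9 genes named as direct p53 targets were followed from proliferating otic progenitors to neurons. The 10 genes (Trp53, Mdm2, Mdm4, Ccng1, Phlda3, Bax, Bbc3, Sesn1, Zmat3 and Trp53inp1) were taken by symbol from the deposited count tables, and all 10 were found among 49997 symbols. The cells are iMOPs, an immortalized mouse line of multipotent otic progenitors (cells of the developing inner ear), with the genotype given as wild-type. In the proliferating group (2 libraries) the cells grew in DMEM/F12 with B27, carbenicillin and basic FGF at 20 ng/ml. In the neuron group (2 libraries) they had been differentiated and grew in Neurobasal medium with N21, L-glutamine and K03861 at 1 µM. K03861 inhibits the cell cycle kinase CDK2. All libraries come from this single line, and the labels call the replicates biological without saying whether they were separate cultures, so p-values measure the spread between these libraries. Medium, FGF and the kinase inhibitor changed together with the cell state and cannot be told apart.

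p53 is held at a low level in unstressed cells because its target Mdm2, an E3 ubiquitin ligase, marks it for degradation, while the Mdm2 relative Mdm4 blocks its transcriptional activity. DNA damage and other stress release p53, which then raises genes for cell cycle arrest, repair, metabolic adjustment and apoptosis. Much of this control acts on the protein, so the RNA level of Trp53 need not follow p53 activity, which was not measured here. In developing neural tissue p53 is known for removing damaged progenitors and young neurons through Bax and Bbc3.

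Bases that match a half-site of the p53 response element were looked for. The windows were those that RefSeq (GRCm38.p6) gives from 250 bases before to 50 bases after each gene start. The half-site is a 10-base motif, the p53 decamer, whose consensus reads the same on both strands. Exact matches to a single decamer were sought, so a match covers only a part of a response element. Of the 10 genes, 8 had windows, and 5 of these 8 genes held a match, against 9.55% of the 27025 genes with windows. By window, 5 of their 12 held a match, against 8.36% of all 32851 windows. The genes had been named as p53 targets, so these shares are given without a test. Zmat3 and Trp53inp1 had no window. The matches are shown because Trp53 encodes p53 and Mdm2, Ccng1, Bax and Sesn1 are known as p53 targets. The decamer is in capitals inside 30 bases of sequence.
Trp53 (chr11:69580274-69580303, plus strand): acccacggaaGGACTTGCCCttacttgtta
Mdm2 (chr10:117710925-117710954, minus strand): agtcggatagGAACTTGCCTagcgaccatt
Ccng1 (chr11:40755452-40755481, minus strand): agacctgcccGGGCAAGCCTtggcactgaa
Bax (chr7:45467080-45467109, minus strand): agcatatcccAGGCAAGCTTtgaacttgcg
Sesn1 (chr10:41887256-41887285, plus strand): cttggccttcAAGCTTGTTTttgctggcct
Distances are from the transcript start on which RefSeq's window is built, which lies 11 bases inside the gene's outermost start in Trp53, 23 in Ccng1 and 5 in Bax and equals it in Mdm2. The decamer began 75 bases upstream of that start in Trp53 and 186 bases upstream in Mdm2. It began 185 bases upstream in Ccng1, 201 in Bax and 173 upstream of a second, internal start of Sesn1. A match of letters describes the sequence and shows no binding.

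The libraries held 7446361 to 14484011 counts, of which the 18S ribosomal RNA row took 53.34% and 59.35% in the replicate 1 libraries and 74.99% and 76.1% in the replicate 2 libraries. TMM scaling factors, which correct for such differences in composition, ranged from 0.6792 to 1.639 and also followed the replicate number. Proliferating replicate 2 stood apart from the other libraries: it had the fewest genes with a count (17762 against 20012 to 21637) and the lowest summed level of 6 proliferation markers. That sum was 79.2 CPM (counts over the scaled library size, times 1e+06) there, 317.1 CPM in proliferating replicate 1, 398 CPM in neuron replicate 1 and 233 CPM in neuron replicate 2. All 6 markers had a log2 fold change above 0 for neurons over proliferating cells (median 0.30), which goes against the labels. The summed level of 8 neuronal markers was 126.4 and 311 CPM in the proliferating libraries and 172 and 297 CPM in the neuron libraries, with none of the 8 at 0 in any library. Tubb3, with 193 CPM in proliferating replicate 2, made up most of that library's sum. Of the 8, 5 had a log2 fold change above 0 (median 0.40). Tubb3, Stmn2 and Syt1 had one below 0 (-0.67, -1.13 and -0.18). Map2 and Elavl4 were higher in neurons without overlap, as were 12.9% of all tested genes. Elavl4 stood at 7.54 and 12.15 CPM against 17.7 and 37.9 CPM. Of 7 otic progenitor markers, Pax2 and Pax8 were at 0 in all libraries. The 7 summed to 76.2 and 109.7 CPM in proliferating cells against 69.96 and 32.2 CPM in neurons. Sox2 and Sox9 made up most of that sum in every library, with log2 fold changes of -0.48 and -1.66. Eya1, the other tested marker, went the other way (0.72). It was higher in neurons without overlap, at 5.08 and 3.65 CPM against 8.64 and 5.79 CPM. Glial markers summed to 38.2 and 61.3 CPM against 18.3 and 1.32 CPM, and Gfap and Fabp7 made up most of this sum in every library. Hair cell markers, with Pou4f3 at 0 throughout, summed to 23.8 and 18.9 CPM against 4.61 and 22.1 CPM. Fibroblast markers summed to 7.12 to 17.03 CPM with Col1a2 and Dcn at 0 throughout. Pdgfra alone, at 7.12 to 16.8 CPM, made up most of the fibroblast sum in every library. Blood and immune markers summed to 0.712 to 1.43 CPM with Ptprc and Hbb-bs at 0 throughout. The part of these cell type markers in the results was not tested. Since the samples are bulk RNA, fewer cells of a type and less RNA per cell cannot be told apart.

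In the edgeR quasi-likelihood test of neurons against proliferating cells over 12783 genes, none of the p53 genes was called. The test called 0 genes at a Benjamini-Hochberg adjusted p-value under 0.05, so the background is 0.0% of all genes; DESeq2 called 12 higher and 48 lower, none of them a p53 gene. Adding the replicate number as a block gave 3 called genes (0.0235%), again with no p53 gene among them. Phlda3 had too few counts to be tested, and the adjusted p-value of each of the other 9 genes was 0.9998. Of the 9 tested p53 genes, 7 had a log2 fold change above 0, against 52.0% of all tested genes, and 2 had one below 0. Their median log2 fold change was 0.40, against 0.02 over all tested genes. It was 0.061 without proliferating replicate 2 and 0.0037 without neuron replicate 2. With the total count as library size and no scaling factor, which moved the median of all genes to -0.27, 4 were above 0 and the median was -0.095.

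At an unadjusted p-value under 0.05 stood 1 of the 9 genes, Trp53inp1, against 3.43% of all tested genes (0.915% in its direction, higher in neurons). The groups did not overlap in CPM for 2 of the 9, Mdm2 and Trp53inp1, both higher in neurons, against 12.9% of all tested genes in that direction. No p53 gene lay lower in neurons without overlap, against 14.5% of all tested genes.

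**Figure D1:**
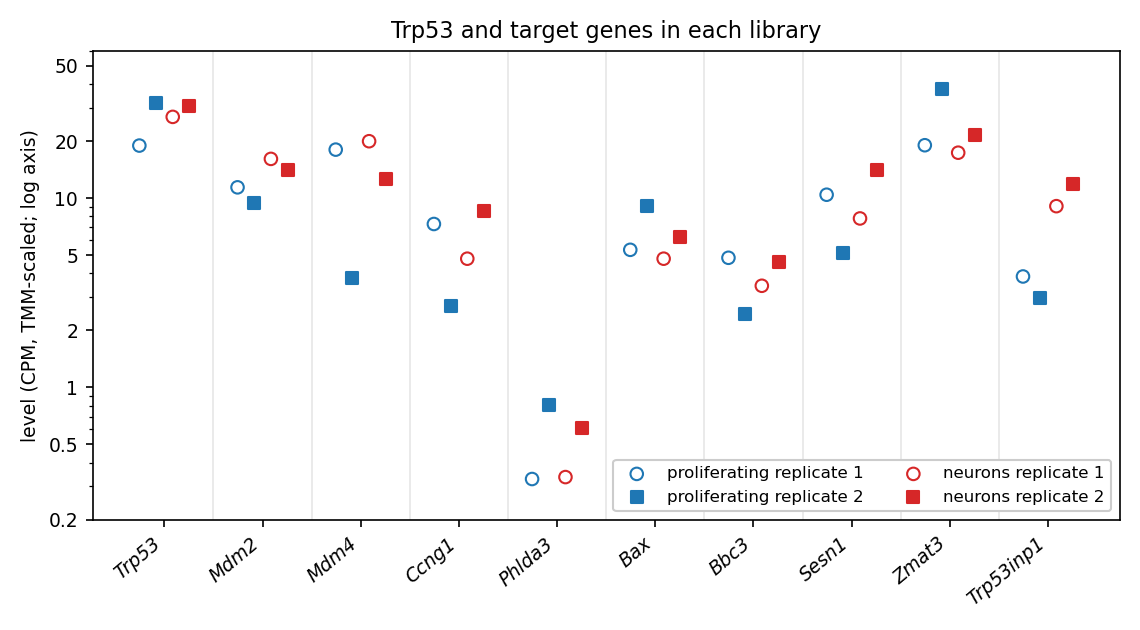
Level of each p53 gene in each library, in TMM-scaled CPM on a log axis; blue points are proliferating libraries, red points neuron libraries, open circles replicate 1 and filled squares replicate 2. Trp53inp1 and Mdm2 lie higher in both neuron libraries than in both proliferating libraries, while Mdm4, Ccng1, Bbc3 and Sesn1 are lowest in proliferating replicate 2.

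Trp53 itself (chromosome 11, 69580348 to 69591873, plus strand, GRCm38.p6) had the highest mean level of the set per kilobase of exon. By the deposited RPKM this did not hold in the proliferating libraries. The counts of Trp53, given for replicates 1 and 2 in that order throughout, were 231 and 235 in proliferating cells and 320 and 300 in neurons. In CPM these were 18.9 and 31.7 against 26.8 and 30.5, so the proliferating libraries lay on both sides of the neuron libraries. The proliferating group averaged 25.3 ± 9.05 CPM and the neuron group 28.7 ± 2.59 CPM (SD, n = 2 each). Its log2 fold change of 0.18 (SE 0.48, edgeR adjusted p-value 0.9998) became -0.18 when proliferating replicate 1 was left out and 0.62 when proliferating replicate 2 was left out. Over the 4 libraries the log2 CPM of Trp53 spanned 0.74, and 24.6% of tested genes spanned less. A processed copy, Trp53-ps, had 12 to 24 counts per library, and how reads that fit both were assigned is not given in the sources used here.

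The 3 genes whose log2 CPM, centred over the 4 libraries, lay closest to that of Trp53 among 7294 genes whose counts averaged 50 or more were Gdpd1, Arhgap35 and Eef1d. Their Euclidean distances were 0.0514, 0.0559 and 0.0577 on the log2 scale. Bbc3 and Phlda3 averaged fewer counts and were not ranked. Of the ranked targets Bax was the nearest, at a distance of 0.58 and rank 1578, followed by Zmat3 (0.715) and Mdm2 (0.82). Mdm4 was the farthest of them, at 2.27. With 4 libraries many genes share any given pattern, so these distances describe the libraries only.

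Mdm2 (chromosome 10, 117688875 to 117710758, minus strand), the ligase that closes the feedback loop on p53, was counted 139 and 70 times in proliferating cells and 192 and 139 times in neurons. This gave 11.4 and 9.45 CPM before differentiation and 16.1 and 14.1 CPM after it. Both neuron libraries were thus above both proliferating libraries, and the proliferating libraries lay close to each other. The ratio of neurons to proliferating cells was 1.41 in the replicate 1 pair (95% counting interval 1.13 to 1.77) and 1.495 in the replicate 2 pair (1.11 to 2.02). These intervals cover counting error only and compare single libraries, not the conditions. The fitted log2 fold change was 0.54 with SE 0.47, and the edgeR adjusted p-value was 0.9998. Its sign stayed positive in each alternative run, from 0.12 on the log2(RPKM + 1) scale to 0.65 without proliferating replicate 1. In the deposited RPKM, which carry no scaling factor, the groups of Mdm2 overlapped, with 1.17 and 0.424 in proliferating cells and 1.27 and 0.603 in neurons.

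Mdm4 (chromosome 1, 132986105 to 133030587, minus strand), which binds p53 and blocks its activation domain, varied most among the set. It had 220 counts in proliferating replicate 1 and only 28 in proliferating replicate 2, against 238 and 124 in neurons. In CPM these were 18.02, 3.78, 19.96 and 12.6 in the same order. Proliferating replicate 2 lay far below the other libraries, and the neuron libraries lay on both sides of proliferating replicate 1. The proliferating replicates differed by a ratio of 0.21 (95% counting interval 0.136 to 0.311), while neurons over proliferating cells gave 1.11 (0.918 to 1.34) in the replicate 1 pair and 3.34 (2.20 to 5.22) in the replicate 2 pair. The fitted log2 fold change of 0.57 (SE 0.73, edgeR adjusted p-value 0.9998) became 2.08 when proliferating replicate 1 was left out and -0.13 when proliferating replicate 2 was left out. The span of its log2 CPM over the libraries was 2.34, and 86.5% of tested genes spanned less.

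Shares of counts within a library need no scaling factor. Mdm2 made up 38.7% of the counts of Mdm2 and Mdm4 together in the first proliferating library (95% Wilson interval 33.8% to 43.9%) and 71.4% in the second (61.8% to 79.4%). In neurons it made up 44.7% (40.02% to 49.4%) and 52.9% (46.8% to 58.8%). The neuron libraries thus fell between the proliferating libraries, and the share did not separate the groups. Mdm2 relative to Trp53 gave ratios of counts of 0.60 and 0.298 in proliferating cells and 0.60 and 0.463 in neurons, so the ratio of proliferating replicate 1 was matched by neuron replicate 1.

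**Figure D2:**
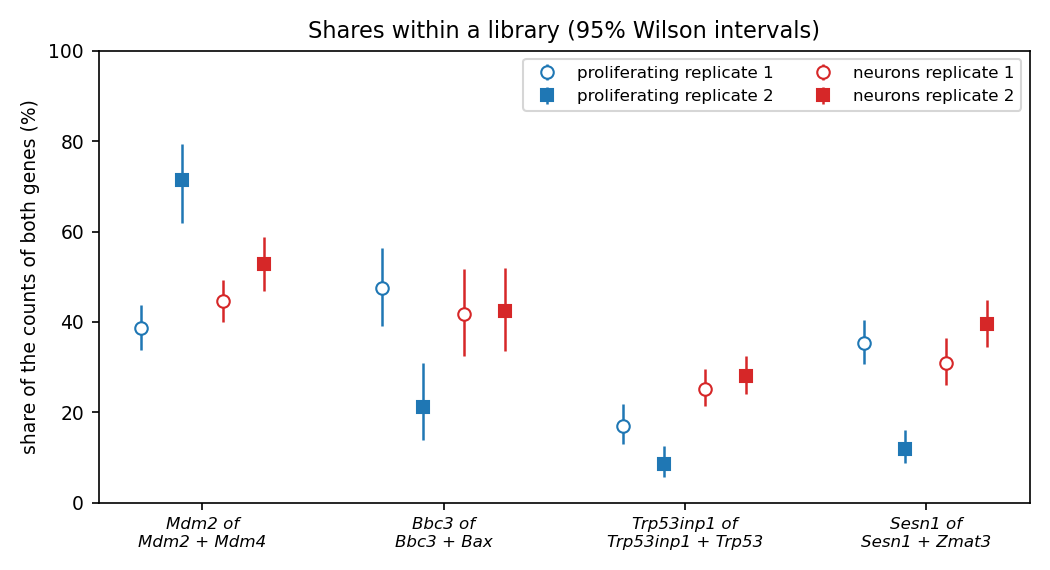
Share of the first gene in the counts of both genes of 4 gene combinations, in percent, for each library, with 95% Wilson intervals as bars. Trp53inp1 relative to Trp53 is higher in both neuron libraries, and in the other combinations proliferating replicate 2 lies apart from the other libraries.

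Of the growth arrest and stress genes, Ccng1 (chromosome 11, 40748552 to 40755309, minus strand) encodes cyclin G1, which brings the phosphatase PP2A to Mdm2. Its counts were 89 and 20 in proliferating cells and 57 and 84 in neurons, or 7.29, 2.70, 4.78 and 8.54 CPM in that order. The pairs went opposite ways: the ratio of neurons to proliferating cells was 0.656 (95% counting interval 0.462 to 0.925) in the replicate 1 pair and 3.16 (1.93 to 5.44) in the replicate 2 pair. Its log2 fold change of 0.40 (SE 0.63) was negative without proliferating replicate 2 (-0.11), without neuron replicate 2 (-0.071) and with no scaling factor (-0.23).

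Sesn1 (chromosome 10, 41810574 to 41908436, plus strand) encodes sestrin 1, which restrains mTORC1 signalling. Its counts were 127 and 38 in proliferating cells and 93 and 138 in neurons, or 10.4, 5.13, 7.80 and 14.03 CPM. Here too the pairs were opposed, with ratios of 0.7497 (0.568 to 0.987) and 2.735 (1.898 to 4.03). The log2 fold change of 0.48 (SE 0.57) was 0.0037 without neuron replicate 2, 0.086 without proliferating replicate 2, 1.05 without proliferating replicate 1 and -0.095 with no scaling factor.

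Phlda3 (chromosome 1, 135766085 to 135769134, plus strand) encodes a pleckstrin homology domain protein that opposes the kinase Akt. Its counts were 4 and 6 in proliferating cells and again 4 and 6 in neurons. The counting intervals of its pair ratios, 0.191 to 5.497 and 0.201 to 2.82, were wide and held 1. Only a large difference could have shown at this depth.

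Trp53inp1 (chromosome 4, 11156441 to 11174379, plus strand), a stress-induced nuclear protein that acts with p53 and in autophagy, differed most between the groups. Counts of 47 and 22 in proliferating cells stood against 108 and 117 in neurons. In CPM these were 3.85 and 2.97 against 9.06 and 11.9, with means of 3.41 ± 0.623 and 10.5 ± 2.01 (SD, n = 2 each). Every neuron library was above every proliferating library, also in the deposited RPKM (0.583 and 0.196 against 1.05 and 0.746). Neurons over proliferating cells gave 2.35 (95% counting interval 1.66 to 3.39) in the replicate 1 pair and 4.01 (2.53 to 6.64) in the replicate 2 pair. The log2 fold change was 1.61 with SE 0.495, an unadjusted p-value of 0.0131 and an edgeR adjusted p-value of 0.9998, so it did not pass the test. With the replicate block the adjusted p-value was 0.484. Leaving out each library in turn gave log2 fold changes of 1.40 to 1.78, and the alternatives together gave adjusted p-values from 0.151 to 1. The unadjusted p-value was 0.0505 without neuron replicate 1, 0.119 without neuron replicate 2 and 0.203 with no scaling factor.

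Relative to Trp53 in the same library, Trp53inp1 made up 16.9% (95% Wilson interval 12.96% to 21.8%) and 8.56% (5.72% to 12.6%) of their joint counts in proliferating cells. It made up 25.2% (21.4% to 29.6%) and 28.1% (23.96% to 32.6%) in neurons. Both neuron shares were above both proliferating shares, and the intervals of the replicate 1 libraries overlapped slightly.

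Among the apoptosis genes, Bax (chromosome 7, 45461695 to 45466903, minus strand) encodes the protein that opens pores in the mitochondrial outer membrane. Its counts were 65 and 67 in proliferating cells and 57 and 61 in neurons, or 5.33, 9.04, 4.78 and 6.20 CPM. The neuron library of each pair was below its proliferating partner, with ratios of 0.898 (95% counting interval 0.618 to 1.301) and 0.686 (0.477 to 0.985), but the groups overlapped. The log2 fold change of -0.38 (SE 0.51) was 0.061 without proliferating replicate 2. In the annotation used here (GENCODE M21), 12.2% of the exon bases of Bax are shared with the same-strand model Gm45808.

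Bbc3 (chromosome 7, 16308398 to 16318334, plus strand) encodes PUMA, a BH3-only protein that frees Bax from its inhibitors. It had 59 and 18 counts in proliferating cells and 41 and 45 in neurons, or 4.83, 2.43, 3.44 and 4.58 CPM. The neuron libraries lay between the proliferating libraries, and the log2 fold change was 0.13 with SE 0.57. It was negative without proliferating replicate 2 (-0.25), without neuron replicate 2 (-0.086) and with no scaling factor (-0.37). Bbc3 made up 47.6% (39.0% to 56.3%) of the counts of Bbc3 and Bax in proliferating replicate 1 and 21.2% (13.8% to 31.01%) in proliferating replicate 2. The neuron replicates were at 41.8% (32.6% to 51.7%) and 42.5% (33.5% to 51.96%), overlapping the interval of proliferating replicate 1.

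Zmat3 (chromosome 3, 32334792 to 32365665, minus strand) encodes a zinc finger protein that binds RNA and acts on splicing and transcript stability. Its counts were 232 and 279 in proliferating cells and 207 and 211 in neurons, or 19.01, 37.7, 17.4 and 21.5 CPM. Proliferating replicate 2 was the highest library and the other libraries lay close together. The ratio of neurons to proliferating cells was 0.914 (0.754 to 1.11) in the replicate 1 pair and 0.57 (0.474 to 0.684) in the replicate 2 pair. The log2 fold change of -0.54 (SE 0.51) was 0.048 without proliferating replicate 2.

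**Figure D3:**
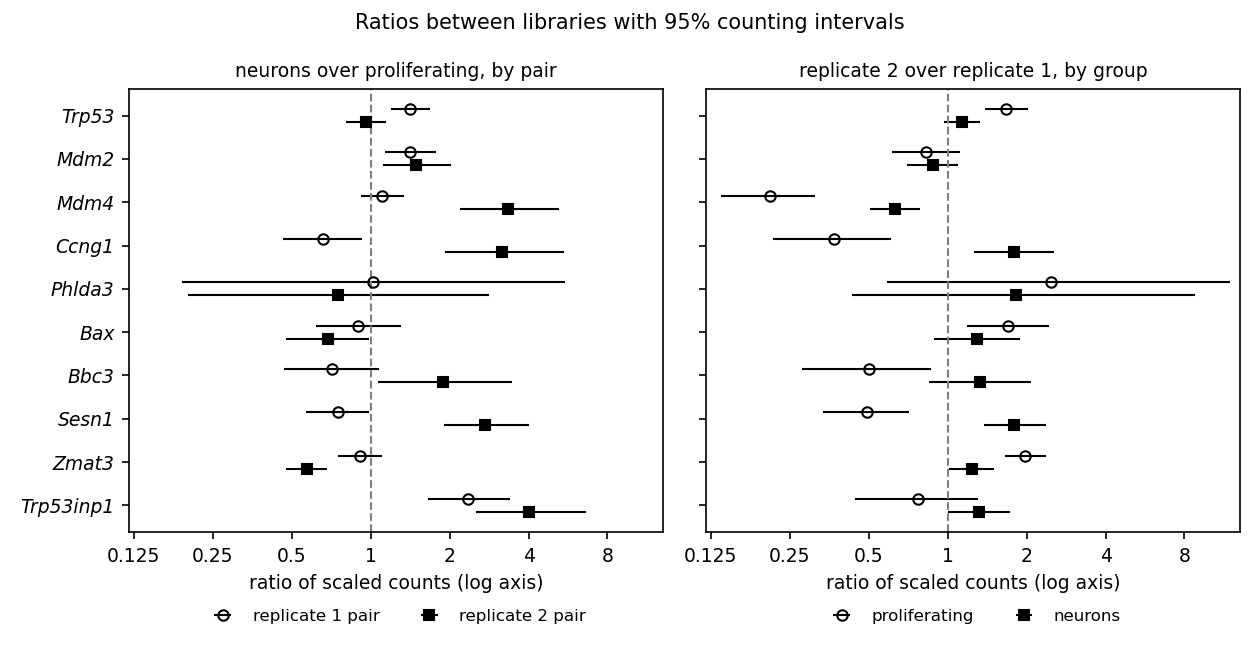
Ratios of scaled counts between libraries on a log axis, with 95% counting intervals as bars. Left, neurons over proliferating cells in the replicate 1 pair (open circles) and the replicate 2 pair (filled squares); right, replicate 2 over replicate 1 within proliferating cells (open circles) and within neurons (filled squares). Mdm2 and Trp53inp1 lie above 1 in both pairs, while Ccng1 and Sesn1 lie below 1 in the replicate 1 pair and above 1 in the replicate 2 pair.

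The replicate pairs gave different pictures of the set. In the replicate 1 pair the median log2 difference of the 9 tested genes was -0.13, against -4.19e-05 over all tested genes. In the replicate 2 pair it was 0.86, against 0.067. Mdm2, Mdm4 and Trp53inp1 were higher in neurons in both pairs (28.8% of all tested genes were) and Bax and Zmat3 lower in both (25.5%). Trp53, Ccng1, Bbc3 and Sesn1 had opposite signs in the pairs.

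Within the proliferating group, 6 of the 9 genes (Mdm2, Mdm4, Ccng1, Bbc3, Sesn1 and Trp53inp1) had their lowest level of all 4 libraries in proliferating replicate 2, against 37.7% of all tested genes. Trp53, Bax and Zmat3 had their highest level there. Counting intervals excluded a ratio of 1 between the proliferating replicates for 7 of the 9 genes, against 59.8% of all tested genes, and between the neuron replicates for 5 of the 9, against 46.2%. They excluded 1 between the groups for 5 of the 9 in the replicate 1 pair, against 40.6%, and 8 of the 9 in the replicate 2 pair, against 52.2%. The low proliferation markers and the low number of detected genes in the same library moved with these values, and their part in them was not tested.

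Levels of different genes were compared per kilobase of exon, using the union of GENCODE M21 exons. The lengths implied by the deposited RPKM were 0.941 times (Phlda3) to 9.72 times (Bbc3) that union, so the RPKM of Bbc3 understates its level the most. In RPKM, Bax stood above Trp53 in both proliferating libraries (3.30 and 2.44 against 2.70 and 1.97) and below it in both neuron libraries. Sesn1 (2.94) was also above Trp53 in proliferating replicate 1. Averaged over the 4 libraries, Trp53 led with 6.67 ± 1.43 CPM per kilobase (SD, n = 4), followed by Bax with 4.02 ± 1.203 and Mdm2 with 2.51 ± 0.578. Sesn1 (2.35 ± 0.953), Zmat3 (2.09 ± 0.817), Bbc3 (1.80 ± 0.521) and Ccng1 (1.66 ± 0.742) came next, and Trp53inp1 (1.07 ± 0.657), Mdm4 (0.919 ± 0.4896) and Phlda3 (0.334 ± 0.1496) were lowest. The ranges over the libraries of each neighbour in this order overlapped. Within the neuron group alone, the ranges were separate between Trp53 and Bax, between Trp53inp1 and Mdm4, and between Mdm4 and Phlda3. Within the proliferating group they were separate only between Bax and Zmat3. Trp53inp1 ranked below Mdm4 in proliferating cells (0.527 ± 0.0962 against 0.737 ± 0.681) and above it in neurons (1.62 ± 0.31 against 1.10 ± 0.352; n = 2 each).

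Other genes of the pathway were described from 6 lists holding 62 genes, of which 50 were tested. In the edgeR test 0 of the 50 were called, while 2 had an unadjusted p-value under 0.05, against 3.43% of all tested genes. The log2 fold changes of the 50 were above 0 for 26 and below 0 for 24, with a median of 0.047 against 0.024 over all tested genes. The groups did not overlap for 7 genes higher and 8 genes lower in neurons, against 12.9% and 14.5% of all tested genes.

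The p53 targets of cell cycle arrest had 8 tested genes, 6 of them below 0, and a median log2 fold change of -1.09. By pair the median was -0.30 for replicate 1 and -1.28 for replicate 2, whose proliferating library stood apart. The groups did not overlap for 4 genes that were lower in neurons (Cdkn1a, Gadd45a, Plk2 and Plk3) and for 1 that was higher, Gtse1. Of all tested genes, 14.5% were lower and 12.9% higher in neurons without overlap. In Plk3 the separation was narrow, with 3.28 and 13.8 CPM in proliferating cells against 3.19 and 3.25 CPM in neurons. Cdkn1a, the CDK inhibitor p21 and the best known p53 target, had 27 and 31 counts in proliferating cells and 6 and 20 in neurons. Its log2 fold change was -1.33 (SE 0.82, edgeR adjusted p-value 0.9998). Cdkn1a, Gadd45a and Plk3 fall outside the naming rule and were picked with their values in view. Plk2, a polo-like kinase, had counts of 30 and 338 against 19 and 6. Its log2 fold change was -4.41 with SE 1.303 (edgeR unadjusted p-value 0.0108, adjusted 0.97), and -1.12 without proliferating replicate 2. DESeq2 called it, with an adjusted p-value of 0.0034. Gtse1, a microtubule-binding protein that restrains p53, had 32 and 16 counts against 39 and 37 (log2 fold change 0.55, SE 0.55). Btg2, an antiproliferative gene and the most counted of this list, had 122 and 169 counts against 259 and 221 (0.43, SE 0.54), and its log2 fold change was -0.0795 without proliferating replicate 1.

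Of the p53 targets of apoptosis, 5 of 10 were tested, with 3 log2 fold changes above 0, 2 below 0 and a median of 0.18. Apaf1, the scaffold of the apoptosome, had 102 and 22 counts in proliferating cells and 82 and 69 in neurons. Its log2 fold change of 0.28 (SE 0.59) was -0.25 without proliferating replicate 2 and -0.23 with no scaling factor. Aen, an apoptosis nuclease, had 85 and 134 counts against 80 and 48 (-1.10, SE 0.599), and -0.24 without proliferating replicate 2. Ei24 had 111 and 80 counts against 72 and 93 (-0.36, SE 0.49). The death receptor gene Fas, chosen after seeing its values, had 35 counts in proliferating replicate 1 and 0 in the other libraries. Pmaip1, which encodes NOXA and was likewise chosen after seeing its values, had 0 counts in every library.

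The targets of repair and metabolism had 5 tested genes of 6, with 2 above 0 and a median of -0.26. Polk, a translesion polymerase, had 50 and 4 counts against 37 and 23, and Gls2, a mitochondrial glutaminase, 33 and 13 against 14 and 14. Xpc, which recognises damaged DNA, had 89 and 65 counts against 87 and 100. Their log2 fold changes were 0.19 (SE 0.87), -0.79 (SE 0.67) and 0.12 (SE 0.48). With no scaling factor those of Polk and Xpc were -0.36 and -0.18.

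All 15 regulators of p53 were tested, with 10 above 0, 5 below 0 and a median log2 fold change of 0.25. Prkdc, the catalytic subunit of DNA-dependent protein kinase, had 240 and 40 counts in proliferating cells and 322 and 207 in neurons. Its log2 fold change was 0.93 (SE 0.65), 2.12 without proliferating replicate 1 and 0.31 without proliferating replicate 2. Rchy1, another p53 ubiquitin ligase, had 37 and 46 counts against 32 and 33 (-0.60, SE 0.58), and 0.011 without proliferating replicate 2. Hipk2, a kinase that phosphorylates p53, was the most counted, with 681 and 553 counts against 832 and 575 (-0.024, SE 0.44).

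Of the BCL-2 family and caspase genes 13 of 15 were tested, with 7 above 0, 6 below 0 and a median of 0.14. Bcl2l11, the BH3-only gene BIM, had 115 and 63 counts against 167 and 126 (0.58, SE 0.46), with no overlap between the groups. Bcl2, an inhibitor of Bax, had 158 and 25 counts against 79 and 22 (-0.89, SE 0.78), and 0.38 without proliferating replicate 1. Mcl1, another inhibitor, had 3740 and 872 counts against 1461 and 1350 (-0.71, SE 0.54), and 0.11 without proliferating replicate 1.

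The 7 family relatives of the set had 4 tested genes, with 2 above 0, 2 below 0 and a median of 0.023. Of the other p53 family genes, Trp63 had 3 counts in proliferating replicate 1 and 0 elsewhere, and Trp73 had 1 count in neuron replicate 2 and 0 elsewhere. Phlda2 had 2 to 11 counts per library. Sesn3 had 299 and 46 counts against 204 and 195 (log2 fold change 0.26, SE 0.66), opposed between the pairs as Sesn1 was, and its log2 fold change was -0.35 with no scaling factor and -0.39 without proliferating replicate 2. Ccng2 had 44 and 69 counts against 91 and 60 (0.10, SE 0.58), and Trp53inp2 had 35 and 141 against 57 and 159 (-0.055, SE 0.92). Trp53inp2 thus followed the replicate number, unlike Trp53inp1. Phlda1 had 57 and 412 counts against 21 and 23, a log2 fold change of -3.87 with SE 1.09 (edgeR unadjusted p-value 0.0086, adjusted 0.93). It was -1.17 without proliferating replicate 2, and DESeq2 called it with an adjusted p-value of 0.0042.

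**Figure D4:**
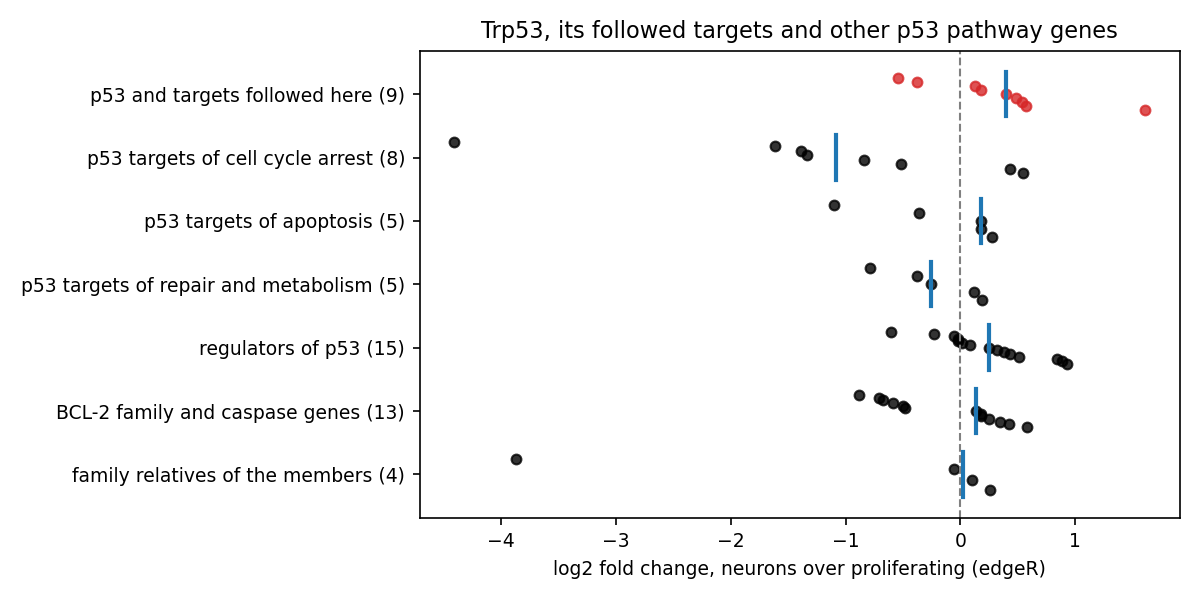
Log2 fold change of neurons over proliferating cells in the edgeR fit for each tested gene (points) of the p53 set (red, the top row) and of 6 other pathway lists, with the number tested in brackets and the median as a blue bar. Trp53inp1 is the rightmost point at 1.61, and Plk2 and Phlda1 are the leftmost at -4.41 and -3.87.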

How the data were processed

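RNA from 4 libraries was analysed. Per the submitters' processing notes, HISAT2, SAMtools, featureCounts, DESeq2 and deepTools 3.4.3 were used with mm10; the annotation, the use of strand and the treatment of multiple matches are not given in the sources used here. For each library the authors deposited a table of raw counts and a table of RPKM; each RPKM equals the count divided by the total count and one length per gene.

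Genes were tested with edgeR 4.0.16 in R 4.3.3 (TMM, filterByExpr with minimum count 10 and minimum total 15, glmQLFit and glmQLFTest, group only, two-sided, Benjamini-Hochberg over 12783 genes). CPM uses TMM-scaled library sizes; log2 CPM has a prior count of 2. SE is the log2 fold change divided by the root of F. Counting intervals are exact conditional binomial or Wilson intervals at 95%; without molecular identifiers, reads are no independent molecules, so they cover counting error only. With 2 libraries a group an exact permutation of single values could not reach the threshold and none was made.

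The replicate 2 titles both carry the words set 2, so equal numbers were taken as a pair; deviations of same-numbered libraries correlated at r = 0.33 across genes. Alternatives were RLE factors, no scaling factor, the 18S row left out, DESeq2 1.42.0, no gene filter, a mean count of at least 50, the replicate block, each library left out in turn, and limma 3.58.1 on log2(RPKM + 1) and log2(RPKM + 0.1).

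The p53 genes and the lists were chosen with earlier results of these data known. The rule named the p53 genes, in each list the largest rise, the largest fall, the most counted gene and genes at an unadjusted p-value under 0.05, the family relatives, and the 3 genes closest to Trp53. Python 3.11.15 with scipy 1.17.1 gave the remaining values.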

Additional observations from a re-analysis of the deposited data

How the results depend on the processing

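None of the 9 tested p53 genes was called in any alternative. The number of genes called, 0 in each direction, was 12 higher and 48 lower with DESeq2 (1240 adjusted p-values not given), 41 higher and 122 lower without a gene filter, 2 lower with no scaling factor, 3 lower with the replicate block, 1 lower on the log2(RPKM + 1) scale and 2 lower on the log2(RPKM + 0.1) scale. Leaving out a library leaves 1 in a group, which is assumed to vary like the other group, and gave 3 to 33 genes higher and 11 to 90 lower, with 33 and 90 without proliferating replicate 1. The block moved the median of the p53 genes from 0.40 to 0.47 and changed no call of a p53 or pathway gene; the glial marker Gfap was among the 3 genes it called. That median was 0.0037 to 0.68 with a library left out. The number of p53 genes without overlap, 2 higher and 0 lower, was examined under alternatives chosen after seeing the data: 1 higher (Trp53inp1) and 2 lower (Bax and Zmat3) with no scaling factor, where 1.75% of all tested genes were higher and 18.4% lower without overlap, and 3 to 6 higher and 0 to 3 lower with a library left out, where 24% to 41% of all tested genes were higher and 27.1% to 39.1% lower without overlap. Mdm2 and Trp53inp1 kept their sign and lay higher without overlap in each of these fits with a library left out. Since both had no overlap over all 4 libraries, this was largely fixed in advance and adds no support.

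Signs turned as follows, with the cause not tested. With no scaling factor the log2 fold changes were -0.37 for Bbc3, -0.23 for Ccng1, -0.095 for Sesn1, -0.23 for Apaf1, -0.36 for Polk, -0.35 for Sesn3 and -0.18 for Xpc. On the log2(RPKM + 1) scale they were -0.054 for Bbc3, -0.011 for Ccng1, -0.036 for Apaf1, -0.021 for Polk and -0.096 for Xpc, and on the log2(RPKM + 0.1) scale -0.099 for Bbc3, -0.0018 for Trp53, -0.0496 for Polk and -0.12 for Xpc. Without a gene filter Hipk2 was at 0.019. With a library left out the ranges were -0.18 to 0.62 for Trp53, -0.13 to 2.08 for Mdm4, -0.11 to 1.26 for Ccng1, -0.76 to 0.061 for Bax, -0.25 to 0.68 for Bbc3 and -0.99 to 0.048 for Zmat3. For the other genes they were -0.25 to 1.19 for Apaf1, -1.90 to 0.38 for Bcl2, -0.0795 to 1.16 for Btg2, -0.25 to 0.22 for Hipk2, -1.22 to 0.11 for Mcl1, -0.57 to 2.28 for Polk, -1.07 to 0.011 for Rchy1, -0.39 to 1.54 for Sesn3 and -0.14 to 0.30 for Xpc. Plk2 and Phlda1 were also called without a gene filter (adjusted p-values 1.109e-06 and 9.913e-06) and without proliferating replicate 1 (0.0045 and 0.0040), and Plk2 without neuron replicate 1 (0.039). Depth limits Phlda3, with at most 6 counts in a library.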
